A study of Mus musculus with 4 samples.

Results

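The baseline profile of the sorted glia was taken from the control libraries alone, 2 of the 4 RNA-seq libraries of a study of the homeodomain factor *Rax* in mouse Müller glial cells. All 24322 gene symbols were ranked by the mean FPKM of these 2 libraries, and the 300 with the highest mean form the profile described here. The ranking chose these genes, so their high level is a description. FPKM is the number of fragments on a gene, scaled by exon length and by how many fragments of the library were mapped, so levels can be set side by side between genes.

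Both controls, mouse 7984 and mouse 3911, had a floxed and a wild-type *Rax* allele (Raxflox/WT), the Rlbp1-CreERT2 transgene and the R26-CAG-LoxP-mTFP1 reporter on a 129S6 background. They received tamoxifen at P4, and their retinas were taken at P14, dissociated with papain and sorted for mTFP fluorescence. Cre, reporter and tamoxifen were common to all 4 RNA-seq libraries, so no library shows cells that were never exposed to them, and in the controls too a *Rax* allele was open to deletion wherever Cre acted. CreERT2 is driven by a fragment of the *Rlbp1* promoter, and the sort took every cell in which the reporter had recombined, whatever its type. The study also saw recombination in the pigment epithelium with this line. Each library came from 1 mouse, and no batch, litter or sort date is given in the labels.

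Müller glial cells span the whole thickness of the retina and serve its neurons. They are known to take up glutamate and turn it into glutamine, to recycle retinoid for cone pigment, to buffer potassium and water, to feed photoreceptors with products of glycolysis, and to carry lipid in apolipoprotein particles. They also keep a set of transcription factors that retinal progenitors use, *Rax* among them.

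The labelled cell type was borne out by its markers. The 5 markers fixed for Müller glia were present in both libraries, with *Rlbp1*, the retinoid carrier, at 2616 and 2159 FPKM in mice 7984 and 3911 (rank 12), *Glul*, the glutamine synthetase, at 1702 and 1121 (rank 28), *Slc1a3*, the glutamate transporter, at 1334 and 939 (rank 41), *Vim*, an intermediate filament, at 273 and 232 (rank 387) and *Sox9*, a glial transcription factor, at 58.7 and 43.3 (rank 2219). From here on the value of mouse 7984 is given first and that of mouse 3911 second. The reporter itself, listed as mTFP1_ex and the basis of the sort, reached 2992 and 3339 FPKM, rank 5 of all entries, and the Cre entry stood at 63.7 and 52.0 FPKM. *Rax*, of which 1 allele was floxed, stood at 189 and 181 FPKM, rank 547.

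Sequence bears on the profile in 3 places. The first is the paired-type homeodomain motif TAATTA, the core recognised by factors such as *Rax* and *Lhx2*, which reads the same on both strands. The *Rax* site predicted by the study is the shorter TAATT, which was not searched for here. RefSeq promoter sequences (GRCm38.p6, 250 bases before to 50 after each start) were matched for 235 of the 300 genes, in 297 promoters, and 4 of these held the motif. All 4 belong to genes among the 100 most abundant, and they are shown with the motif in capitals.
Pcp2: ttatagggcatcTAATTAgcaagcaagtct
Gpm6a: ctcgagatagtcTAATTAcatccctccttg
Glo1: tttcaagttttgTAATTAtaagcaaaatca
Slc1a3: cctgaaatgaggTAATTAaacgtggccttg
The Pcp2 window lies at chr8:3625366-3625395 on the minus strand, that of Gpm6a at chr8:54954617-54954646 on the plus strand, that of Glo1 at chr17:30612832-30612861 on the minus strand and that of Slc1a3 at chr15:8710767-8710796 on the minus strand. The motif begins 101, 99 and 190 bases before the start site in Pcp2, Gpm6a and Glo1, and 23 bases after it in Slc1a3. The 4 promoters are 1.35% of the 297, against 2.48% of the promoters of genes with a mean of 1 FPKM or more, called expressed genes here, and 5.29% of all 32851 promoters, and 4.17% of the 96 promoters of the 100 most abundant genes. These shares rest on 4 promoters, and the differences between them were not tested.

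The second is the TATA box, read as TATAAA on the gene's own strand between 40 and 20 bases before the start. It stood in 8 of the 297 promoters (2.69%), against 0.960% for expressed genes and 1.87% of all promoters. Those of the 4 genes within the top 100 are shown, with the box in capitals.
Ckb: gaatgaatgggcTATAAAtagccgccaatg
Ppia: gcccgaaccgggTATAAAggaagccgcggc
H3f3b: gtgcagcgtctcTATAAAtatggaggcgtc
Fos: tcacagcgcttcTATAAAggcgccagctga
*Ckb*, the brain creatine kinase, ranked 4, and *Ppia*, cyclophilin A, ranked 8. *H3f3b*, which encodes the replacement histone of non-dividing cells, ranked 23, and *Fos*, the immediate early transcription factor, ranked 42. Their windows lie at chr12:111672349-111672378 (minus strand), chr11:6415826-6415855 (plus strand), chr11:116024514-116024543 (minus strand) and chr12:85473845-85473874 (plus strand). The other 4 boxes stood before *Dapl1*, *Prdx1*, *Hist3h2ba* and *Tubb2a*. The GC box GGGCGG was read on both strands and stood in 60.3% of the promoters of the 300, in 63.1% of those of expressed genes and in 35.7% of all promoters. The share of the 300 thus lay above all promoters and slightly under the expressed ones. The CCAAT box (39.4%, 37.9% and 37.4%), the E-box CACGTG (9.76%, 10% and 7.15%), the Crx site TAATCC (7.41%, 5.83% and 7.06%) and the heat shock element GAANNTTC (4.04%, 5.65% and 7.86%) were read on both strands too and are given in the same order. None of the motifs was found in the *Rlbp1* promoter of the table, and the table held none for *Sox9*, *Clu*, *Crym*, *Dkk3* and *Car2*.

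The third place is a gene whose level depends on where its reads were placed. *Rps27*, a protein of the small ribosomal subunit at chr3:90212667-90213648, has a near copy, *Rps27rt*, at chr9:114982366-114982739. The coding sequence of *Rps27*, 255 bases long, was found whole in the *Rps27rt* transcript with 0 differing bases.
Rps27 and Rps27rt: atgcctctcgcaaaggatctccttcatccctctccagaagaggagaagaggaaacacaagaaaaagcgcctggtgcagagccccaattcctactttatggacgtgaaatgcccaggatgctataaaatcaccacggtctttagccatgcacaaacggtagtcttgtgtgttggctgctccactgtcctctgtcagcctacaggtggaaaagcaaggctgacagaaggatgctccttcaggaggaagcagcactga
No capitals are used because the sequences share every base of this run. In the deposited values *Rps27* stood at 2.95 and 168 FPKM and *Rps27rt* at 782 and 1157, rank 52. Neither value can therefore be read as the level of 1 locus.

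The most abundant entries were a mixture of glycolytic, glial and neuronal genes. *Eno1*, the glycolytic enolase, led with 5582 and 5163 FPKM, a mean of 5373 ± 296 (SD, n = 2). *Apoe*, the apolipoprotein that Müller glia secrete, followed with 5041 and 4232. *Pcp2*, a marker of bipolar cells, came next by the mean but was far apart in the mice, with 2071 and 6515 FPKM. These 3 genes took 2.40% and 2.58% of the summed FPKM, the 10 highest 6.06% and 6.44%, and the 300 together 36.7% and 40.1%.

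The rest of the 10 highest mixed the same kinds of gene. *Ckb*, which buffers ATP through creatine, stood at 2932 and 4425, and *Dbi*, an acyl-CoA binding protein used as a glial marker, at 2777 and 3499. *Mfge8*, a secreted protein that tags dying cells for uptake, reached 3742 and 2464, and *Car2*, a carbonic anhydrase of Müller glia, 2969 and 2499.7. Of the general cell genes, *Ppia* stood at 1994 and 4099 and *Ubb*, a polyubiquitin, at 2016 and 3422. The glial *Apoe*, *Mfge8* and *Car2* were higher in mouse 7984, and *Ckb*, *Dbi*, *Ppia* and *Ubb* were higher in mouse 3911.

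Ranks 11 to 30 held further glial genes. *Crym*, a thyroid hormone binding protein, stood at 2199 and 2053 and *Clu*, the secreted chaperone clusterin, at 1951 and 1234. *Sparc*, a matrix protein, stood at 1408 and 1491, and *Dkk3*, a secreted protein of the Dickkopf family, at 1608 and 1078. *Clu* and *Dkk3* were lower in mouse 3911, with log2 ratios of -0.66 and -0.58, whereas *Crym* and *Sparc* differed little between the mice. *Mgarp*, a mitochondrial protein, stood at 2078 and 2413, *Ftl1*, a ferritin light chain, at 1594 and 2557 and *Mif*, a cytokine and tautomerase, at 1655 and 1958. The remaining entries of this range were *Gapdh* (2416 and 2691), *Aldoa* (1598 and 2087), *Ldha* (1266 and 1398) and *Bsg* (1781 and 1709) of energy metabolism, the actin *Actg1* (1873 and 1462), the histone gene *H3f3b* (1407 and 1858), the chaperone *Hspa8* (1273 and 1713), the ATP synthase protein *Usmg5* (1081 and 1976), the G protein subunit *Gng13* (1337 and 2742) and the copies *Eno1b* (2609.7 and 1769) and *Gm1821* (1668 and 2456).

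**Figure D1:**
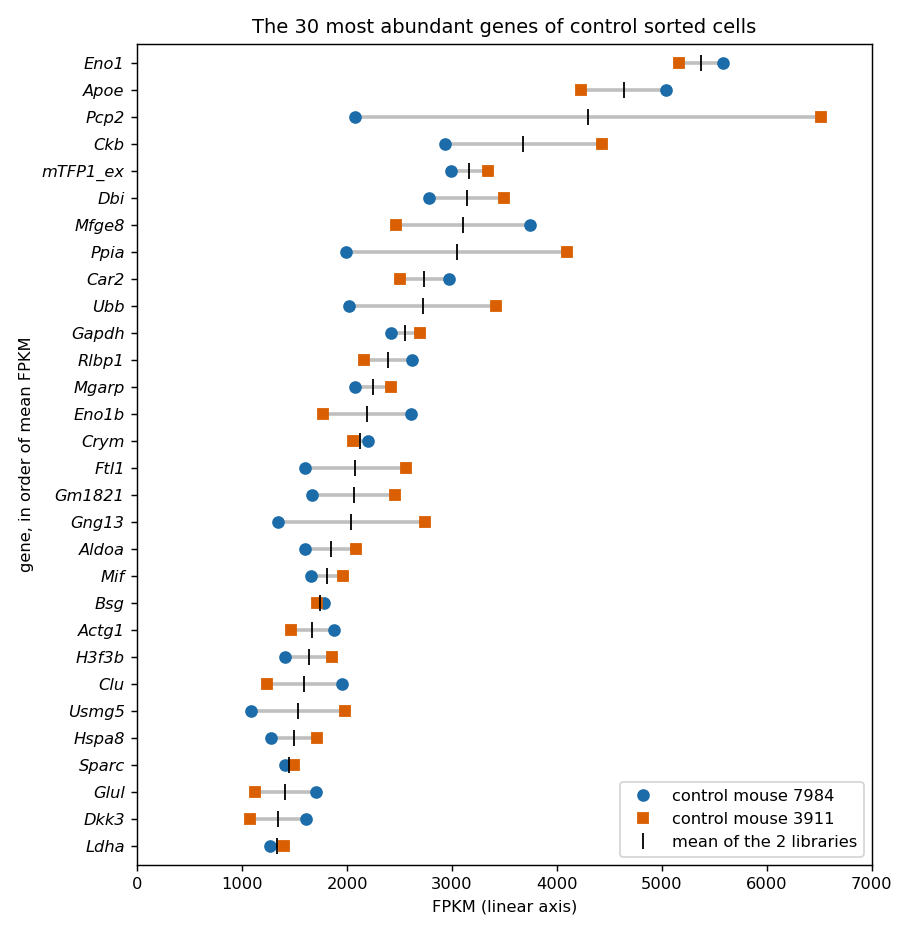
FPKM of the 30 entries with the highest mean, on a linear axis, with a circle for control mouse 7984, a square for control mouse 3911 and a tick for their mean. *Pcp2* spans 2071 to 6515 FPKM, the widest gap shown, whereas *Eno1*, *Crym*, *Bsg* and *Sparc* have both mice close together.

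The 300 genes were sorted by function into 29 groups, counting a group of unassigned genes. Symbols placed 224 of them, 54 were placed by hand after their values had been seen, and 22 were left unassigned. Of the 300, 290 are protein coding, 4 are transcribed pseudogenes, 2 are long noncoding RNAs, 1 is a microRNA gene and 3 could not be matched to RefSeq.

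Oxidative metabolism was the largest group by FPKM. It held 50 genes of the respiratory chain and ATP synthase, out of 107 such symbols measured, and took 4.32% of the summed FPKM in mouse 7984 and 6.19% in mouse 3911. Its leading members were *Usmg5* (1081 and 1976), *2010107E04Rik* (882 and 1689) and *Atp5b* (1046 and 1428) of the ATP synthase and *Ndufa4* (819.8 and 1491), a small protein of cytochrome oxidase. All 50 were higher in mouse 3911, with a median log2 ratio of 0.79, and 49 of 50 remained so when the libraries were scaled to equal sums. Of all 300, 238 (79.3%) were higher in mouse 3911, and of the expressed genes 6129 of 12364 (49.6%). The mitochondrial carriers, 9 genes led by *Mgarp*, the ATP/ADP exchanger *Slc25a4* (910.03 and 1239.5), the phosphate carrier *Slc25a3* (504 and 519) and *Slc25a5* (356 and 543), took 1.0% and 1.14%.

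Glycolysis and the enzymes next to it took a smaller share from fewer genes. The 13 members, creatine kinase and malate dehydrogenases included, took 3.78% in each mouse, and every one of the 37 symbols of this set was above 0 in at least 1 library. Behind *Eno1*, *Ckb*, *Gapdh* and *Aldoa* came *Tpi1*, the triose phosphate isomerase, at 1037 and 1610.2 and *Pkm*, the last kinase of glycolysis, at 1029.7 and 1411. *Bsg* encodes basigin, the partner of lactate transporters. The median log2 ratio of the 13 was 0.25, with 10 of 13 higher in mouse 3911, against 238 of all 300 (79.3%). Over the whole set of 37 the median was 0.14, with 21 higher in mouse 3911. It was 0.03 with equal sums (8 of 13) and 0.36 with equal medians (11 of 13), and the difference from the respiratory genes was not tested.

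Protein synthesis was a large group too. Cytosolic ribosomal proteins gave 35 of the 300, from 93 symbols, and took 2.52% and 3.58%. These group sizes depended on the scale: among the 300 highest by FPKM times transcript length, 8 genes were cytosolic ribosomal, 18 respiratory, 18 of the cell surface and 26 of signalling and membrane traffic, with 76 not assigned. *Rpl41* led with 971 and 1522, followed by *Rps14* (672 and 1219), *Rps29* (603 and 1023) and *Rps18* (585 and 916). All 35 were higher in mouse 3911 (median log2 ratio 0.69), and 33 of 35 with equal sums. Of the 4 genes placed with translation, the elongation factor *Eef1a1* stood at 1066 and 1227, the initiation factors *Eif1* at 614 and 699.7 and *Eif5a* at 329 and 452, and *Lars2*, a mitochondrial leucyl-tRNA synthetase, at 1786 and 275. Only *Lars2* of these was higher in mouse 7984 in the values as deposited, whereas 3 of the 4 were with equal sums.

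Glial genes filled several smaller groups. Lipid handling, with *Apoe*, *Dbi*, *Clu*, the fatty acid activating enzyme *Acsl3* (630.4 and 655) and the peroxiredoxin *Prdx6* (644 and 528), took 2.08% and 1.65% from 5 genes. Secreted and matrix proteins took 1.65% and 1.20% from 6 genes, among them *Mfge8*, *Sparc*, *Dkk3*, the prohormone processing *Cpe* (673 and 903) and *Col9a1* (717 and 646), a collagen chain. Glutamate handling was in the profile through *Glul* and *Slc1a3* alone (0.573% and 0.334%), and retinoid handling through *Rlbp1* alone (0.494% and 0.35%), although 24 of 30 and 11 of 19 symbols of these sets reached 10 FPKM in both mice.

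The cell surface group held 11 genes and took 1.61% and 1.19%. It was led by the membrane protein *Itm2b* (1053 and 1094) and by the tetraspanins *Cd9* (1021 and 865), *Tspan3* (964 and 882) and *Cd81* (836 and 779). Ion and water handling held 10 genes, with the carbonic anhydrases *Car2* and *Car14* (1095 and 974) and the proton pump subunit *Atp6v0b* (372 and 485) among its highest. Lower in the same group were *Mlc1* (364 and 257), a glial membrane protein, and *Fxyd1* (315 and 308), a sodium pump regulator. The water channel *Aqp4* (129 and 94.9) and the potassium channel *Kcnj10* (86.0 and 35.0), both known for Müller glia, ranked 989 and 1903 and so fell outside the 300.

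Transcription and chromatin gave 13 genes, most of them histones or nucleosome binding proteins, led by *H3f3b*, *H3f3a* (893 and 1184) and *Hmgn2* (744 and 1053). *Id3*, an inhibitor of basic helix-loop-helix factors, stood at 691 and 616. Further factors of the Müller glial list were lower. *Hes5* stood at 165 and 173, *Hes1* at 137 and 131, *Lhx2* at 84.0 and 46.9, *Sox2* at 26.9 and 12.8, *Nfia* at 25.3 and 17.8, *Nfib* at 19.5 and 16.5 and *Nfix* at 27.7 and 10.1.

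Immediate early genes, which cells switch on within minutes of stimulation or handling, gave 7 of the 300. *Fos* stood at 1269 and 964, *Dusp1*, a phosphatase of MAP kinases, at 843 and 739.9, *Ier2* at 574 and 594 and *Cyr61*, a matrix protein, at 559 and 429.8. *Egr1* (575 and 393), *Btg2* (474 and 411) and *Jun* (436 and 256) completed the group. It took 0.893% and 0.614%, with 6 of 7 genes higher in mouse 7984 and 7 of 7 with equal sums. Of all 300, 62 were higher in mouse 7984, and 94 with equal sums. Of the 51 symbols measured, 25 reached 10 FPKM in both mice. The level of these genes in cells that were not dissociated and sorted was not measured.

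Apart from the neuronal and photoreceptor genes described further on, the remaining groups mostly belong to any cell. Ferritins and antioxidant enzymes gave 9 genes, with *Ftl1*, *Fth1* (802 and 1279), *Prdx2* (826 and 1106) and the glyoxalase *Glo1* (528 and 858). All 9 were higher in mouse 3911, as were 238 of all 300. The cytoskeleton gave 15, with *Actg1*, *Tuba1a* (893 and 1163), *Tmsb4x* (529 and 1238) and *Pfn2* (778 and 550.4). Chaperones gave 6, with *Ppia*, *Hspa8*, *Hsp90ab1* (499 and 416) and *Hspa5* (351 and 368). Ubiquitin and the proteasome gave 9, with *Ubb*, *Sumo2* (638 and 941), *Skp1a* (478 and 637) and *Nedd8* (354 and 604). Signalling and membrane traffic gave 19, among them *Pea15a* (746 and 722), *Calm2* (443 and 849.9) and *Gng5* (630.1 and 535). Lysosomal genes gave 4, which were *Cd63* (593 and 549) and the cathepsins *Ctsd* (523 and 471), *Ctsf* (317 and 394) and *Ctsl* (345 and 294). Secretion and the endoplasmic reticulum gave 9, splicing and RNA binding 5 and other enzymes 10. *Tmsb4x* and *Ppia* were past 2-fold higher in mouse 3911 in the values as deposited.

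**Figure D2:**
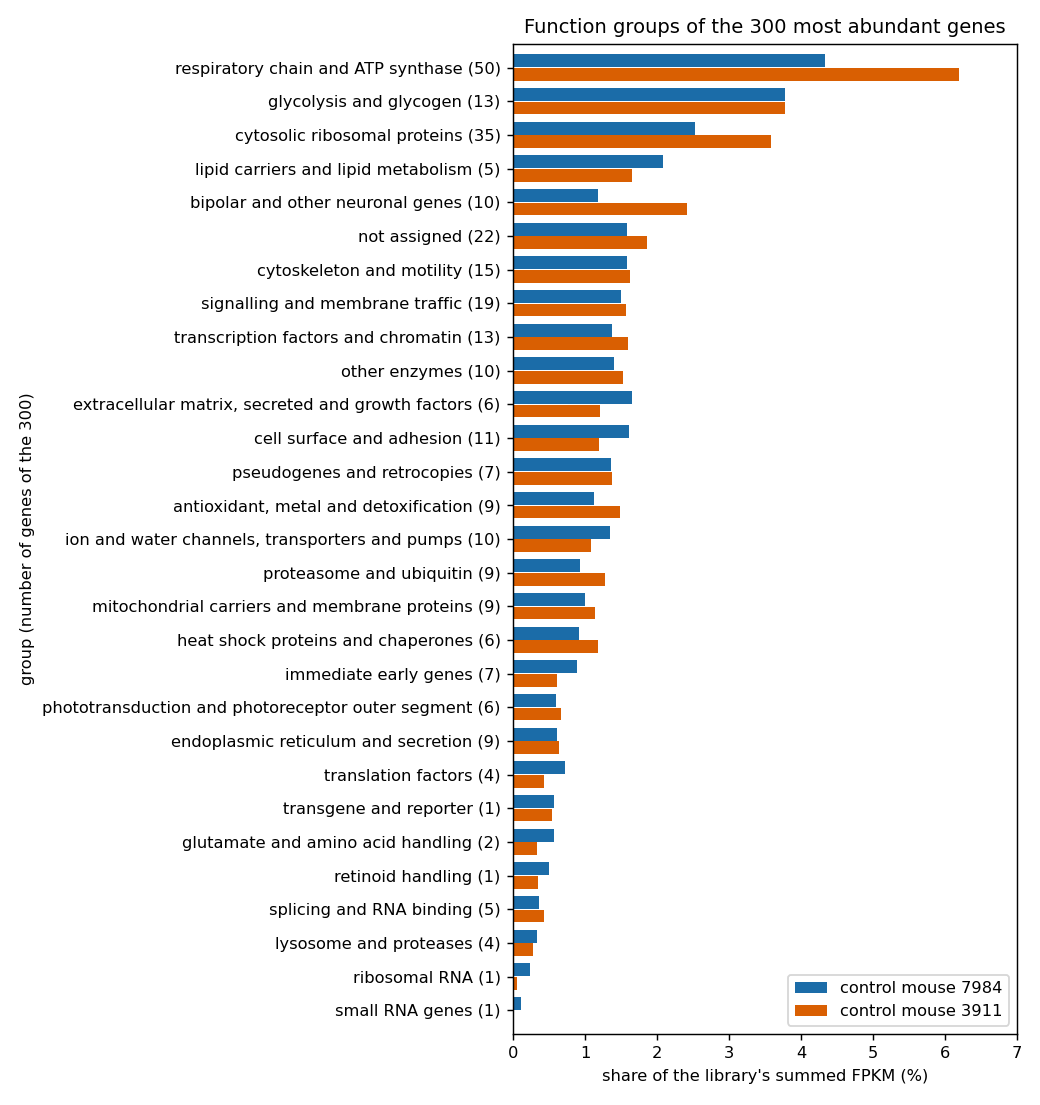
Share of each library's summed FPKM (linear axis from 0) held by each function group of the 300, with blue bars for control mouse 7984, orange bars for control mouse 3911 and the number of genes in brackets. The respiratory chain (4.32% and 6.19%), ribosomal proteins and the bipolar and neuronal genes (1.18% and 2.41%) have the longer bar in mouse 3911, and glycolysis has bars of the same length.

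The 2 libraries agreed in order but not in every group. Across all symbols the Pearson correlation of log2(FPKM + 1) was 0.981 (Spearman's rho 0.966), over the 12364 expressed genes it was 0.952 (0.947), and within the 300 it was 0.813 (0.747). These are correlations across genes, which are not independent replicates, and the first spans the widest range of levels. Each library's own 300 highest genes shared 247 symbols, 82.3% of either list, and all 247 are in the profile. The own lists shared 24 of the 30 highest and 6 of the 10 highest. The profile ended at rank 300 with *Ndufa2* (mean 309.5 FPKM), *Rpl4* (309.4) and *Rpl24* (308.5), and *Ywhae* (308.1), *Snrpd3* (306.5) and *Rpl28* (305.0) stood just outside it, closer to the last members than the spread between the mice.

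Most members were higher in mouse 3911. The median log2 ratio of FPKM + 1, mouse 3911 over mouse 7984, was 0.49 in the 300 and -0.01 over all expressed genes. A positive ratio was found in 238 of the 300 (79.3%) and in 6129 of the 12364 expressed genes (49.6%). The shift was not limited to the profile and fell with level: the next 700 genes by rank had a median of 0.34, with 542 of 700 higher in mouse 3911 (77.4%), the 2000 after those 0.18, the 3000 after those 0.01 and the 6000 after those -0.15. Scaling the libraries to equal sums lowers every log2 ratio by about 0.22 and leaves 206 of 300 positive, and scaling to equal medians raises them by 0.10. In all, 44 members changed direction between these scalings. With 1 group of 2 mice there is no test of a difference between them.

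Among the 300, ratios past 2-fold were more common towards mouse 3911 than towards mouse 7984. In the direction of mouse 3911, 20 of the 300 passed (6.67%), against 1.88% of all expressed genes, and in the direction of mouse 7984, 4 passed (1.33%), against 4.46%. With equal sums the 20 became 8 and the 233 expressed genes past 2-fold in that direction became 112, and with equal medians they became 35 and 365. Towards mouse 7984 the 4 stayed 4 with equal sums, while the 552 expressed genes became 939, and with equal medians these were 3 and 425. The 5 largest ratios towards mouse 3911 were those of *Pcp2* (log2 ratio 1.65), *Qpct*, a glutaminyl cyclase (193 and 563 FPKM, 1.54), *Pcp4*, a calmodulin binding protein (687 and 1938 FPKM, 1.49), *Isl1*, a homeodomain factor of bipolar cells (220.2 and 591 FPKM, 1.42), and *Rpl35* (333 and 831 FPKM, 1.32). Bipolar markers thus gave 2 of the 5, *Pcp2* and *Isl1*. The 5 largest ratios towards mouse 7984 were those of *Mir6236* (587 and 79.3 FPKM, -2.87), *Lars2* (-2.70), *Rn45s*, the ribosomal RNA precursor (1239 and 315 FPKM, -1.97), *Kdr*, a receptor for vascular endothelial growth factor (464 and 228 FPKM, -1.02), and *Jun* (-0.77).

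The leading pair and *Rn45s* stand apart in the plot of the libraries. *Mir6236* is the only microRNA gene of the 300, and 1137 of 1158 microRNA symbols were listed at 0 in both mice. Its mature sequence in the RefSeq table, at chr9:110281353-110281371 on the plus strand, is shown with the seed (bases 2 to 8) in capitals.
mmu-miR-6236: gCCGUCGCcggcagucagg
The libraries were made from long cDNA, so this value counts reads placed at the hairpin gene and not the mature microRNA. How reads that match several loci were counted is not given, and where these reads came from was not tested. *Mir6236*, *Lars2* and *Rn45s* were 7.41, 6.5 and 3.93 times higher in mouse 7984, and what moved these entries together was not tested.

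**Figure D3:**
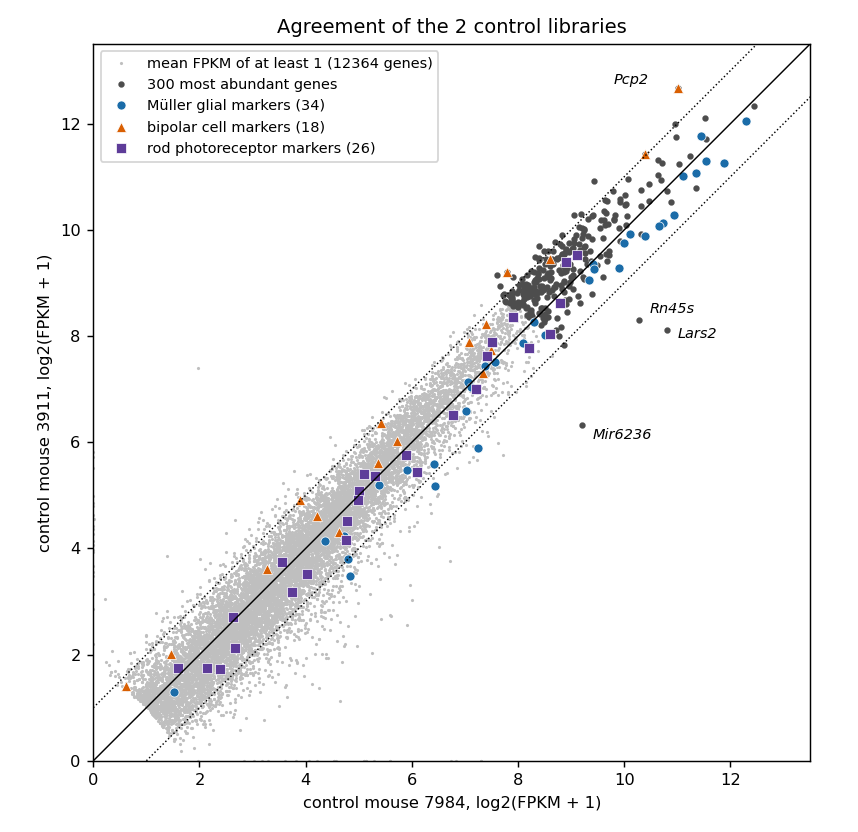
log2(FPKM + 1) of mouse 7984 (horizontal axis) and mouse 3911 (vertical axis) for the 12364 expressed genes (grey), the 300 (dark) and the marker lists of Müller glia, bipolar cells and rods. The solid line marks equal values and the dotted lines 2-fold, Müller glial markers lie mostly below the solid line and bipolar markers mostly above it, and *Mir6236*, *Lars2* and *Rn45s* lie far below.

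The ratio moved with transcript length as well as with level. Over expressed genes, its median log2 value was 0.24 for transcripts of 300 to 599 bases, 0.17 for 1000 to 1499 bases and -0.33 for 4000 bases or more. At a mean of 10 FPKM or more these were 0.39, 0.25 and -0.27. The annotated lengths of the members were short, with a median of 837 bases against 2120 for expressed genes, and 59.7% against 19.7% under 1000 bases. Each length is the median over a gene's annotated transcripts, the protein-coding ones where it has any. It need not be that of the transcript expressed, and *Glul* is entered at 681 bases and *Malat1* at 606. After the median of its length class was taken from each gene's ratio, a step chosen after seeing the data, 49 respiratory genes with a length kept a median of 0.56, 35 ribosomal genes one of 0.46 and 10 bipolar and neuronal genes one of 0.80. Before that step the medians were 0.78, 0.69 and 0.87, so the difference between the mice became smaller in these 3 groups and remained. Some differences towards mouse 7984 grew, from -0.26 to -0.36 in the Müller glial list, from -0.30 to -0.33 in 6 immediate early genes and from -0.55 to -0.69 in the 2 glutamate genes. The 4 genes of translation turned from 0.20 to -0.02. The class medians are those of all expressed genes, so this step does not adjust for level.

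**Figure D4:**
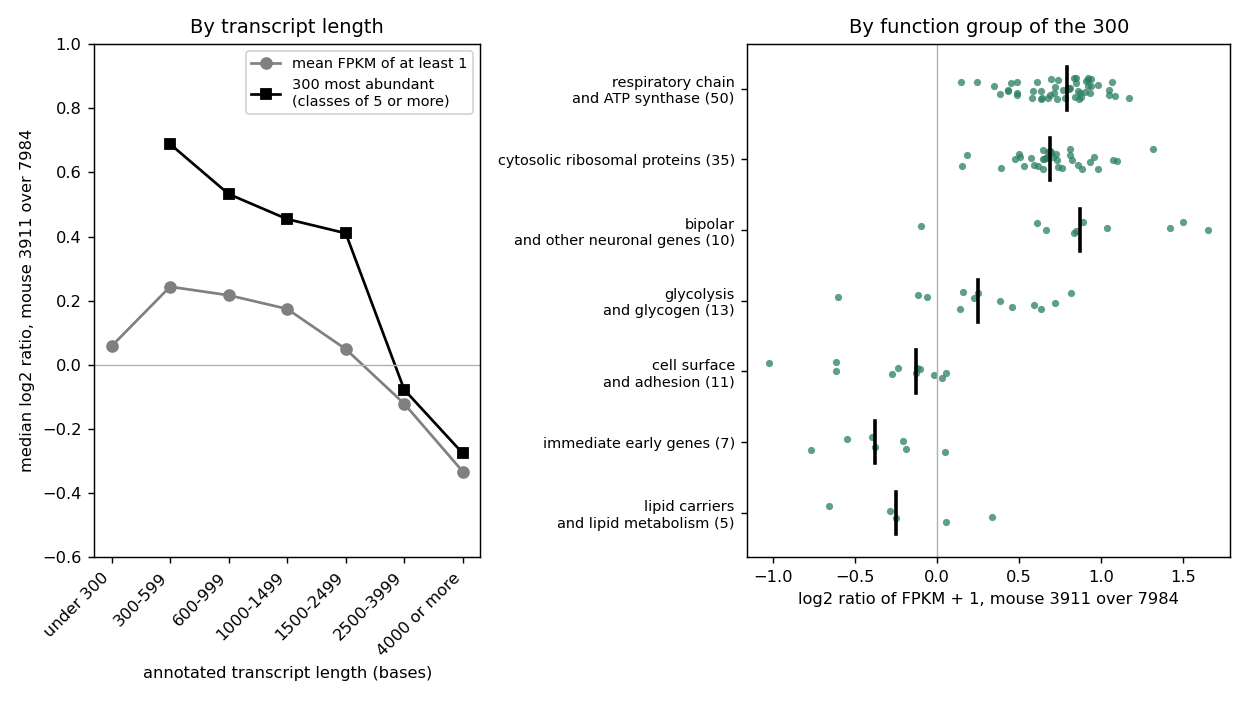
Left, median log2 ratio of FPKM + 1 (mouse 3911 over mouse 7984) by annotated transcript length in bases, for expressed genes (circles) and for the 300 (squares, classes of 5 or more genes). Right, the ratio of each gene in 7 function groups of the 300, with a bar at the median: all respiratory and ribosomal genes are positive, 9 of 10 bipolar and neuronal genes are positive, and 6 of 7 immediate early genes are negative.

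RNA of other retinal cells was read from marker lists. The Müller glial list held 34 genes, all at 1 FPKM or more in both mice, 33 at 10 or more and 18 within the 300. Their summed FPKM was 33249 in mouse 7984 and 27332 in mouse 3911, or 6.27% and 4.44% of all FPKM, and 31 of 34 were higher in mouse 7984, the exceptions being *Dbi*, *Hes5* and *Id1*. With equal medians 26 of 34 were. Of all expressed genes, 49.6% were higher in mouse 3911 in the values as deposited. The lowest member was *Rgr*, a retinal opsin of Müller glia and pigment epithelium, at 1.85 and 1.45. *S100b*, another protein used to mark these cells, stood at only 2.53 and 3.91, and *Gfap*, the filament of reactive glia and astrocytes, at 4.80 and 8.94.

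Bipolar cell markers had the largest summed FPKM of the lists of other cells, and the largest difference in summed FPKM between the mice. All 18 were above 0 in both mice, with a sum of 4869 FPKM in mouse 7984 and 11744 in mouse 3911. *Gng13*, a G protein subunit, stood at 1337 and 2742, *Cabp5*, a calcium binding protein, at 389.8 and 703 and *Isl1* at 220.2 and 591, all within the 300 together with *Pcp2*. Markers of the ON pathway were present as well, with the channel *Trpm1* at 178 and 213, the glutamate receptor *Grm6* at 160.4 and 156, the kinase *Prkca* at 39.9 and 47.6 and *Sebox* at 167 and 300.3. In mouse 3911, 15 of the 18 were higher, against 49.6% of the expressed genes. The median log2 ratio of the 18 was 0.67, and 17 of 18 lay above the median of their length class. Set against the Müller glial list, the bipolar sum was 14.6% in mouse 7984 and 43.0% in mouse 3911, a 2.93-fold difference. Without *Pcp2*, left out after its value was seen, the shares were 8.42% and 19.1%, a 2.27-fold difference. The bipolar sums were then 2798 and 5229 FPKM, below the rod sum of 3357 in mouse 7984 and above that of 3589 in mouse 3911. In bulk RNA, fewer cells of a type and less RNA per cell cannot be told apart.

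Further neuronal genes of the 300 were placed together by hand after their values had been seen, so their shared direction is a description of genes picked with it known. *Pcp4*, *Neurod4*, a basic helix-loop-helix factor (335 and 621), *Syp*, the synaptic vesicle protein synaptophysin (286 and 452), *Nnat*, neuronatin (316 and 484), and *Nrn1l* (250.2 and 447) were higher in mouse 3911, and *Synpr*, synaptoporin (379 and 354), was slightly higher in mouse 7984, a direction that turned with equal medians. Together with *Pcp2*, *Gng13*, *Cabp5* and *Isl1*, these 10 genes took 1.18% and 2.41% of all FPKM. *Cplx3*, a complexin of ribbon synapses, stood at 315 and 587. The part of bipolar RNA in the higher respiratory and ribosomal genes of mouse 3911 was not tested.

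Rod RNA was present at a similar level in both mice. The 26 rod markers summed to 3357 and 3589 FPKM, all 26 stood at 1 or more in both mice, and 4 were within the 300. These were *Sag*, the rod arrestin (548 and 737), *Unc119*, a carrier of lipid-bearing proteins (475 and 674), *Pde6g*, the inhibitory subunit of the phosphodiesterase (439 and 395), and *Gnat1*, rod transducin (386 and 262). Against the Müller glial list the rod sum was 10.1% and 13.1%. Of the rod markers 15 of 26 were higher in mouse 7984, 21 of 26 with equal sums and 14 of 26 with equal medians, and the difference from the bipolar list was not tested.

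The cone list summed to 1213 and 1839 FPKM, of which *Gnb3*, a G protein subunit that cones share with ON bipolar cells, gave 965 and 1472. The opsins *Opn1sw* (25.4 and 32.5) and *Opn1mw* (22.3 and 12.9) and the cone transducin *Gnat2* (29.3 and 39.8) were present at lower levels. Next after *Gnb3* came *Gngt2* (53.0 and 90.5), *Kcne2* (42.1 and 93.8) and *Ccdc136* (42.3 and 68.9). Apart from *Gnb3*, no cone marker reached 100 FPKM in either mouse.

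Markers of inner retinal neurons other than bipolar cells were low, apart from *Npy* and *Pax6* of the amacrine list. The 17 amacrine markers summed to 220.04 and 163 FPKM, most of it from *Npy* (128 and 91.3) and *Pax6* (70.6 and 48.4), which Müller glia are known to express as well in the case of *Pax6*. Which cells the *Npy* reads came from was not tested. *Meis2* (6.89 and 7.44) and *Calb2* (5.94 and 7.71) followed. The GABA synthesis gene *Gad1* stood at 2.75 and 2.31, and *Sst* and *Vip* were listed at 0 in both mice. The 5 horizontal cell markers summed to 1.13 and 1.39 FPKM, with *Calb1* (0.618 and 0.888), *Megf11* (0.364 and 0.315), *Onecut2* (0.149 and 0.147) and *Lhx1* (0 and 0.0422) under 1 FPKM and *Onecut1* at 0. Of the 16 ganglion cell markers, *Tubb3* (23.3 and 30.8), *Gap43* (10.7 and 21.2), *Sncg* (1.63 and 6.09) and *Rbpms* (3.66 and 3.13) were the highest, and the defining factors *Pou4f1*, *Pou4f2* and *Pou4f3* were listed at 0 in both.

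Cells that are not neurons left little RNA. The 18 microglial markers summed to 99.99 and 108 FPKM, with *Ctss* (16.3 and 13.8), *C1qb* (12.9 and 14.6) and *Tyrobp* (11 and 12.7) among the highest and the receptor *Cx3cr1* at 1.72 and 1.30. Astrocytes were represented by *Gfap*, *Pdgfra* (5.58 and 5.10) and *Pax2* (0 and 0.0381). The endothelial list summed to 39.9 and 31.0 FPKM, of which *Flt1* (25.1 and 13.2), *Egfl7* (6.52 and 8.54), *Esam* (4.18 and 5.34) and *Cldn5* (0.711 and 1.77) gave nearly all, whereas *Pecam1* (0.638 and 0.212) and *Cdh5* (0.104 and 0.0853) were under 1 and *Erg* was at 0. *Kdr*, an endothelial receptor in other tissues and a member of the 300 (464 and 228), was thus far above the vessel markers.

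The pigment epithelium and oligodendrocyte lists rested mainly on 1 gene each. Of the pigment epithelium list, *Rrh*, an opsin-like isomerase, gave 263 and 232 of a sum of 272 and 242 FPKM. *Rdh5* (3.34 and 2.03), *Ttr* (1.0 and 4.12) and *Kcnj13* (1.30 and 1.13) were next, *Rpe65* stood at 0 and 0.131, *Lrat* at 0.137 and 0.0418 and *Mlana* at 0. Of the oligodendrocyte list *Cnp* gave 112 and 89.2 and *Mbp* 9.64 and 11.5, *Mag* (0.106 and 0.725) was low, and *Mog* and *Sox10* were at 0 in both. Pericyte and smooth muscle genes summed to 46.8 and 27.3 FPKM, with *Pdgfrb* (24.7 and 10.3), *Vtn* (17.4 and 14.5), *Notch3* (2.04 and 0.639) and *Rgs5* (0.879 and 0.737) the highest and *Anpep* at 0.

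The progenitor list was led by *Hes6* (71.4 and 129), a factor of differentiating neurons, followed by *Neurog2* (7.47 and 6.78) and *Dll1* (4.74 and 2.84). Red blood cell genes summed to 9.04 and 22.4 FPKM, with *Hbb-b1* (4.19 and 7.77), *Hba-a1* (3.79 and 6.54) and *Hba-a2* (0.165 and 7.24) the highest. Lens genes summed to 7.83 and 7.74 FPKM, nearly all from *Bfsp2* (6.37 and 6.61), and *Crygc*, *Cryge*, *Crygf*, *Gja3* and *Lim2* were at 0. White blood cell genes summed to 33.0 and 7.29 FPKM, because the neutrophil genes *S100a8* (15.7 and 0) and *S100a9* (8.77 and 0) were found in mouse 7984 only, beside *Lyz2* at 7.61 and 6.92, and *Ccr7*, *Cd3d* and *Cd3e* were at 0. As a floor, 20 genes of other organs summed to 17.6 and 23.6 FPKM, nearly all from the skin keratins *Krt10* (7.31 and 10.9) and *Krt1* (8.18 and 9.83), with 8 of the 20 at 0 in both.

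**Figure D5:**
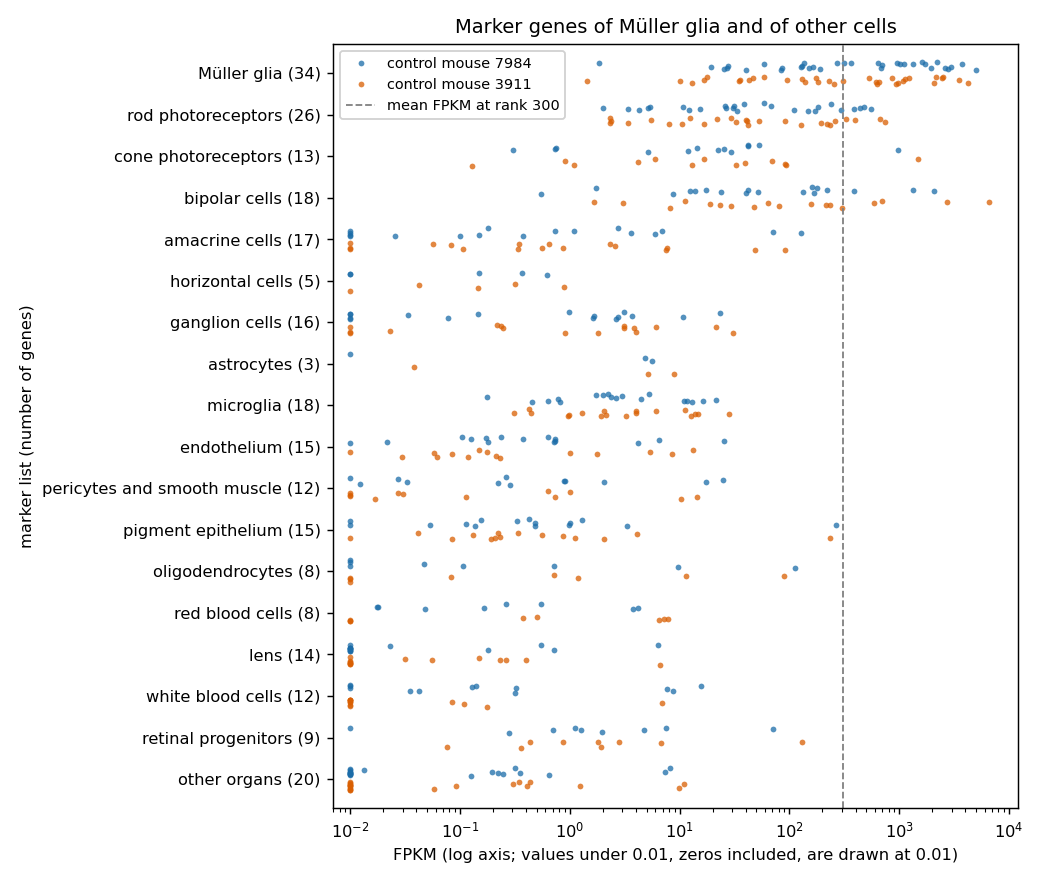
FPKM (log axis) of every marker gene by list, in blue for control mouse 7984 and in orange for control mouse 3911, with values under 0.01 and zeros drawn at 0.01 and a dashed line at the mean FPKM of rank 300. Müller glial, rod and bipolar markers lie almost wholly above 1 FPKM, and the lists of horizontal cells, vessels, lens and other organs lie mostly below it.

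Many symbols were listed at 0. A listed 0 need not mean that the gene is silent. In the sets taken by symbol, 3 cytosolic ribosomal, 2 respiratory and 10 proteasome and ubiquitin symbols were at 0 in both mice too. Whether these symbols are used in the retina was not tested. Of the 24322 symbols, 7091 were listed at 0 in both mice and 1830 in 1 mouse only, 11820 reached 1 FPKM in both, 945 reached 100 and 35 reached 1000. Protein coding symbols were at 0 in both in 4703 of 20471 cases (23%). The families with no known task in the retina made up many of these, with 1018 of 1101 olfactory receptors, 286 of 319 vomeronasal receptors and 14 of 14 interferon alpha genes at 0. Of the 39 Hox genes, which pattern the trunk, 36 were at 0 and the highest, *Hoxc8*, had a mean of 0.0248 FPKM. *Cryab*, the small heat shock protein alpha-B crystallin, counted with the chaperones, stood at 356 and 307 FPKM (rank 264). None of the 16 other crystallin symbols reached 10 FPKM in both mice, and the highest of them was *Crybb1* with a mean of 5.05.

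The low values rest on few reads. Mapped reads were estimated at about 12730000 for mouse 7984 and 9280000 for mouse 3911, from the steps that single reads leave in values under 0.5 FPKM. On a transcript of 2 kb, 1 read is worth 0.0437 and 0.0599 FPKM, and a value of 0 allows up to 3 reads, or 0.131 and 0.180 FPKM, counting error only. Among the genes at 0 in 1 mouse, 34 reached 10 FPKM in the other, 31 of them small RNA genes, and the other 3 were *Gm38671*, *S100a8* and *Bc1*.

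The copies of abundant genes are uncertain members. The profile holds 7 entries that are pseudogenes or retrocopies, with 1.35% and 1.37% of the FPKM, and between 71.5% and 92.1% of the 50-base words of their transcripts also occur in the parent. *Gm15772* stood at 277 and 479 against 34.7 and 39.2 for its parent *Rpl26*, *Atp6v0c-ps2* at 774 and 917 against 100.3 and 139 for *Atp6v0c*, *Rpl34-ps1* at 417 and 502 against 36.0 and 77.0 for *Rpl34* and *Oaz1-ps* at 639 and 1174 against 382 and 452 for *Oaz1*. Here the copy was above the parent. *Eno1b* was below *Eno1*, and *Gm1821*, which shares 79.6% of its words with *Ubb*, was below *Ubb*. Copy and parent share sequence, so a read can match both, and how such reads were counted is not given. Neither value of a pair can therefore be read as the level of 1 locus.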

How the data were processed

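RNA-seq was done on mTFP-positive cells of P14 retinas, 1 library per mouse. The authors mapped 101-base single-end reads to mm10 and deposited 1 FPKM value per gene symbol and library. The processing notes of the submitters name TopHat2 2.1.1, Bowtie2 2.2.8, SAMtools 0.1.18 and Cuffdiff 2.2.1, whereas the paper names other versions and Cufflinks, and the RNA isolation differs too, a column kit in the labels and TRIzol LS in the paper. How reads that match several loci were counted, and whether strand was used, is not given in the sources used here.

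FPKM were used as deposited. Both control libraries entered every result, and the *Rax* iCKO libraries were not used here. All 24322 symbols were ranked by the mean FPKM. Ratios are differences of log2(FPKM + 1), and genes with a mean of 1 FPKM or more served as background. No test was run, because there is 1 group of 2 mice. Symbols were matched to RefSeq (24203 of 24322), transcript lengths are medians over GENCODE M21, and promoters are those of the RefSeq table (GRCm38.p6).

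Depth was estimated from whole-read steps in low values, with 77.1% and 79.3% of the values used lying within 0.1 read of a whole number. In simulated libraries the ratio step recovered genes whose set change was well past the 2-fold cut. That checks the code only and does not bear on the ratios between these mice. The named genes are the 30 highest, up to 4 per function group and per marker list with any defining member at 0, the 5 glial markers, the 5 largest ratios in each direction among the 300 and 3 genes on either side of rank 300. Some genes that this rule names are not reported here. Other genes were named after their values were seen. The members, lists and motifs were chosen with earlier results of these data known. Python 3.11.15, numpy 2.4.6, pandas 2.3.3 and scipy 1.17.1 were used.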

Additional observations from a re-analysis of the deposited data

How the results depend on the processing

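With 1 group of 2 mice, leaving out a mouse ranks the genes by the other alone, and 270 to 277 of the 300 were kept. Ranking by FPKM times annotated transcript length, a rough guide to reads rather than levels, kept 165 and put *Mfge8* first. The lower of both values, sums of 1000000, no transcripts under 300 bases, and leaving out *Rn45s*, *Lars2*, *Mir6236* and the copies (chosen after seeing the data) kept 279, 298, 299 and 290. Without small RNA genes in the total, the glycolytic share was 3.79% in place of 3.78%. No paired analysis was possible because only the control group is used.

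The 2-fold counts depended on scaling. Of the 300, 20 were higher in mouse 3911, against 8 with equal sums, 35 with equal medians, 125 at 1.5-fold and 11 with ratios taken less the length class (chosen after seeing the data). Towards mouse 7984 the 4 became 12 at 1.5-fold and 2 with the length class, where *Kdr* fell to -0.69 and *Rn45s*, which has no annotated length, was left out. Over all genes the 233 higher in mouse 3911 became 396 with pseudocount 0.1, 112 with equal sums, 365 with equal medians and 1399 at 1.5-fold, and the 552 higher in mouse 7984 became 944, 939 with equal sums, 362 with a mean FPKM of at least 5 and 1788 at 1.5-fold. The median log2 ratio of the 300 was 0.27 with equal sums, 0.59 with equal medians and 0.34 less the length class. The Pearson correlation was 0.932 with pseudocount 0.1, 0.981 with no filter and 0.929 with a mean FPKM of at least 5. The cause of these moves was not tested beyond the settings themselves.

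For promoters, the share of the 300 with a GC box was 1.69 times that of all promoters but 0.956 times that of expressed genes, so the direction turned with the background. The TATA box stood at 1.44 and 2.80 times, and TAATTA at 0.255 and 0.542 times, with TAATTA in 4.17% of the top 100.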

Other observations

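Some values stood outside the lists above, and the genes were chosen after these were seen. *Actb*, a gene often used as a loading reference, stood at 283 FPKM in mouse 7984 and 133 in mouse 3911, a log2 ratio of -1.09, which is past 2-fold as deposited but not with the shift of 0.10 that equal medians give. *Otx2*, a homeodomain gene of photoreceptors and bipolar cells, stood at 142 and 197. *Hspa1a*, a heat-inducible chaperone gene, stood at 25.1 and 7.46. *Socs3*, an inhibitor of cytokine signalling, was level at 29.1 and 28.6. Of the 297 members matched to RefSeq, 33 lie on chromosome 11 (11.1%), against 8.27% of expressed genes.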
